A study of Rattus norvegicus with 2 samples.

Results

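The genes examined here were 8 genes of cholesterol synthesis and its feedback control that are driven by the transcription factor SREBP2, chosen by name: Hmgcs1, Idi1, Fdft1, Sqle, Lss, Cyp51, Dhcr7 and Insig1. These genes and the lists below were chosen with earlier results of these data known, so that their counts are not independent of the data. In all, 7 of the 8 had a probe set that carried the gene's symbol alone, out of 15037 named genes on the array. Hmgcs1, the cytosolic HMG-CoA synthase, had no probe set named for it in the annotation used here and was not analysed. All of the enzymes among them act in synthesis, and genes of sterol uptake are described separately. The RNA of 1 array was labelled as left ventricle of male SD (Sprague Dawley) rat given cocaine at 20 mg/kg daily for 14 days. That of the other array was labelled as left ventricle of male SD rat with no stimulation. The study's methods give an age of 8 weeks, injection through the tail vein, and saline on the same schedule for control rats. Each rat was measured on 1 Clariom S array, a microarray with 1 set of short probes per transcript. With 1 array per group there is no replicate, so values are given with no SD and no p-value, and each ratio compares these 2 arrays only.

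The values are the authors' normalized intensities on a linear scale, and a change is given as the log2 ratio of the cocaine over the control intensity. The arrays had nearly the same median intensity over all probe sets, 180.9 for cocaine and 181.6 for control. A background limit was taken from 1155 genes of olfactory and vomeronasal receptors, used by sensory neurons of the nose. Their 95th percentile was 64.1 for the cocaine array and 71.5 for the control array. The markers went largely against the tissue label, since most lung markers were brighter than any measured cardiomyocyte marker. All 5 measured alveolar type II markers, all 6 alveolar type I markers and all 3 club cell markers, which are genes of lung epithelium, exceeded the limit on both arrays, whereas of 11 measured cardiomyocyte markers 8 did so in the cocaine rat and 7 in the control rat. Sftpc, the surfactant protein C of type II cells, gave the top reading among named genes for both rats, and that reading was identical. Of the cardiomyocyte markers, the brightest was Myl2, a myosin light chain of the ventricle, at 6344 for cocaine and 7778 for control. Actc1, the cardiac actin, stood at 5276 and 1842, and Tnni3, the cardiac troponin I, at 708 and 207. Myh7 and Myl3, a myosin heavy chain and another myosin light chain, lay under the limit on both arrays. Myh6 had no probe set named for it in the annotation used here, although the study lists it among its top upregulated genes. None of 6 hepatocyte markers lay above the limit on either array. In a piece of tissue, fewer cells of a type and less RNA per cell cannot be told apart.

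Cholesterol is built from acetyl-CoA. The mevalonate steps give isoprenoid units, squalene synthase joins these to squalene, an epoxidase and a cyclase turn squalene into lanosterol, and a last series of enzymes converts lanosterol to cholesterol. The rate is set by SREBP2, which is held in the endoplasmic reticulum by Scap and the Insig proteins while sterols are plentiful, and which is carried to the Golgi and cut free by a pair of proteases when they run low. In the lung, cholesterol is a component of surfactant, which alveolar type II cells make, whereas in all cells the same mevalonate steps also supply ubiquinone, dolichol and the lipid anchors of proteins.

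The stretches of DNA in front of these genes are shown because SREBP2 acts there, usually beside the factors NF-Y and Sp1. RefSeq promoter windows of the GRCr8 assembly, running from 250 bases before to 50 bases after the start of a gene, were found for 6 of the 8 genes (Hmgcs1, Idi1, Insig1, Cyp51, Lss and Dhcr7). The windows of the gene with the largest higher ratio (Idi1), of the feedback gene (Insig1), of an enzyme with an intermediate ratio (Cyp51) and of the gene that was lower (Lss) follow, 5′ to 3′ on the strand of the gene, with capitals marking CCAAT (the NF-Y box), GGGCGG (the Sp1 box) or CACGTG (an E-box) on either strand. They lie at chr17:66547475-66547774 on the minus strand, chr4:8057720-8058019 on the minus strand, chr4:30991443-30991742 on the plus strand and chr20:12118181-12118480 on the minus strand.
Idi1: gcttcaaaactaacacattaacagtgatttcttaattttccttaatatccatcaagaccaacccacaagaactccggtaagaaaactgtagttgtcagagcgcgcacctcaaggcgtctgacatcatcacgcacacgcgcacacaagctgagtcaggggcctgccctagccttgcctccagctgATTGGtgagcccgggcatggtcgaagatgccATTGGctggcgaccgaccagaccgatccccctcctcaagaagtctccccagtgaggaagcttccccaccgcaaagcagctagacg
Insig1: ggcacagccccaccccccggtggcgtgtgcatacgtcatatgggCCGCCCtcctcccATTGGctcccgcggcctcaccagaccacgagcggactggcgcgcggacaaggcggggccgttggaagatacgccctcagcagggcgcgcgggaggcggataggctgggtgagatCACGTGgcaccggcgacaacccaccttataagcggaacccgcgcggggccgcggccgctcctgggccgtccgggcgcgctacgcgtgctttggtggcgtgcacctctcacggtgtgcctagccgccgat
Cyp51: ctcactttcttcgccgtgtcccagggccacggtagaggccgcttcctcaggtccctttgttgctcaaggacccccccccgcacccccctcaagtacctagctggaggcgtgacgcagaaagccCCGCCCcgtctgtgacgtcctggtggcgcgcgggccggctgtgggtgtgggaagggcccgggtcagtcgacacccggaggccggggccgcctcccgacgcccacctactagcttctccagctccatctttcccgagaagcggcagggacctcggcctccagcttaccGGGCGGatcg
Lss: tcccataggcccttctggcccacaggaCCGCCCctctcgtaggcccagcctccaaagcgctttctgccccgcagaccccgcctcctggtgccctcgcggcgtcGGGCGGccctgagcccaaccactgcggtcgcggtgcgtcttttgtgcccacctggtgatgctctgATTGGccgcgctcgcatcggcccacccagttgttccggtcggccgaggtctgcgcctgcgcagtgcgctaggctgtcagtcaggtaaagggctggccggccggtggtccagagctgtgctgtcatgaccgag
The Idi1 window held NF-Y boxes at -66 and -35 from the start and no Sp1 box. The Insig1 window held an NF-Y box at -193, an Sp1 box at -206 and an E-box at -79. The Lss window held an NF-Y box at -82 and Sp1 boxes at -223 and -147, and the Cyp51 window held Sp1 boxes alone, at -127 and 41. Over the 6 windows, the NF-Y box was found in 4 and the Sp1 box in 5, compared with 37.5% and 33.1% of all 33469 windows of the same length. Among the 11 windows of the other synthesis enzymes, each box was found in 10. They include an enzyme gene with no named probe set (Lbr) and lack a measured one (Pmvk), so they differ from the measured enzymes below. The classical sterol regulatory element and its core TCACNCCAC were searched on both strands, and were in none of these 17 windows, compared with 0.125% and 1.12% of all windows. CACGTG was added to the search after the sequences had been seen, and was in 1 of the 6 windows compared with 6.42% of all. A match describes the letters only.

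Of the 7 measured genes, 6 had a higher intensity on the cocaine array and 1 a lower one. Among all 15037 named genes, 52.4% were higher. The median log2 ratio of the 7 genes was 0.33, compared with 0.02 over all named genes. At least 1.5-fold higher was 1 gene, Idi1, compared with 4.63% of all genes, and at least 1.5-fold lower was 1 gene, Lss, compared with 4.95%. With a lower bar of 1.2-fold, 5 of the 7 were higher at the measured values, compared with 22.4% of all genes, and 1 was lower, compared with 20.0%. Of these 5, 4 exceeded the limit for background on each array, and the other was Dhcr7, for which only a bound under 1.2-fold can be given. A loess on level left 2 of the 7 past 1.2-fold, Idi1 and Dhcr7, compared with 20.6% of all genes, and quantile normalization left 4. None differed 2-fold, compared with 0.698% of all genes that were higher and 0.599% that were lower by that much. All 7 exceeded the background limit of the cocaine array and 6 that of the control array. Of the 6 above it on both arrays, 5 were higher, compared with 57.5% of the 9763 genes that passed the same filter. Quantile normalization and a loess on level took Sqle to the other side of zero, and left 5 of the 7 genes higher with medians of 0.27 and 0.24.

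**Figure D1:**
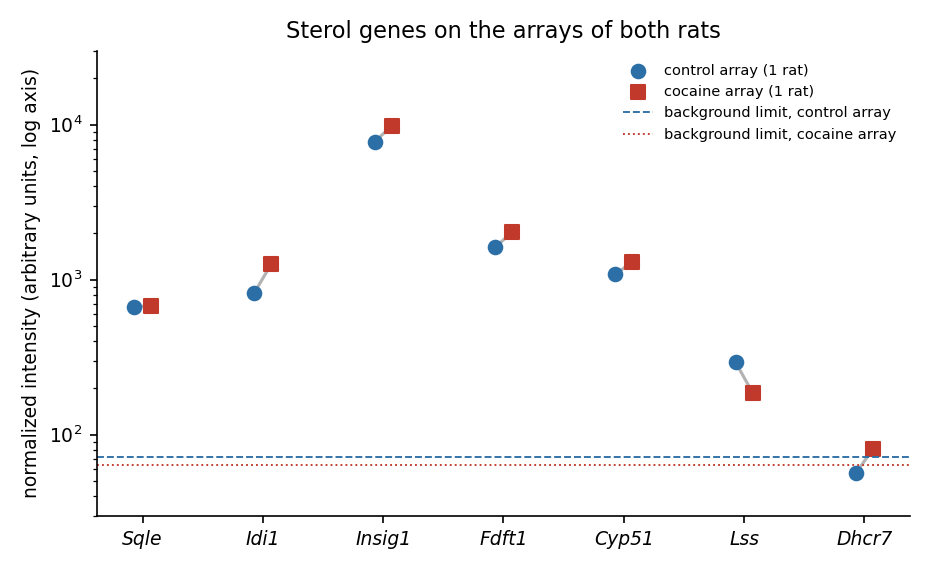
Normalized intensity (log axis) of each sterol gene on the control array (blue circles) and the cocaine array (red squares), with the background limit of each array as a line. The cocaine value lies above the control value for 6 of 7 genes and below it for Lss, and only the control value of Dhcr7 lies under its limit.

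Idi1, which encodes the isopentenyl diphosphate isomerase that balances the 2 building blocks of isoprenoids, was measured at 1260 in the cocaine rat and 825 in the control rat. This was a 1.53-fold difference (log2 ratio 0.61) and rank 600 from the highest among all named genes. Its window above holds a pair of NF-Y boxes. Several NF-Y boxes were also found in the windows of other synthesis enzymes, among them Msmo1 (log2 ratio 0.51) and Mvk (-0.46). When genes are split by mean level into 10 bins, 90% of the log2 ratios in the bin of Idi1 lay between -0.43 and 0.56, so that Idi1 lay just outside that range. It fell short of 1.5-fold after quantile normalization (0.54) and after a loess on level (0.54).

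Fdft1, the squalene synthase that makes the step committed to sterols, stood at 2024 in the cocaine rat and 1613 in the control rat, a 1.25-fold difference (log2 ratio 0.33). Sqle, the squalene epoxidase and a rate-limiting enzyme of the later pathway, stood at 678 and 669, which is nearly level (log2 ratio 0.02). Lss, the cyclase that closes the rings to give lanosterol, stood at 187 in the cocaine rat and 292 in the control rat. It was 1.56-fold lower (log2 ratio -0.64), rank 560 from the lowest among all named genes. These enzymes act one after the other, and their ratios lay on both sides of zero. The range of 90% of genes in the level bin of Lss was -0.62 to 0.61, so that Lss, like Idi1, lay just outside it, while the other 5 genes lay inside the ranges of theirs.

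Cyp51, the lanosterol demethylase, stood at 1305 in the cocaine rat and 1080 in the control rat, a 1.21-fold difference (log2 ratio 0.27). Dhcr7, the reductase of the final step, stood at 80.8 and 56.5. The background limit exceeded its control value, so that only a bound can be given, and after raising values to the higher of the limits the gene was at least 1.13-fold higher. Insig1, which holds Scap and SREBP2 back in the endoplasmic reticulum and is itself a target of SREBP2, stood at 9794 in the cocaine rat and 7777 in the control rat, a 1.26-fold difference (log2 ratio 0.33). The log2 ratios of Insig1, Fdft1 and Cyp51 thus lay close together, from 0.27 to 0.33.

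The size of these ratios can be set beside RNA that is added to a hybridization in equal amounts. The 4 hybridization controls of the array (bioB, bioC, bioD and cre) had log2 ratios between -0.12 and 0.17, and 6 of the 7 genes, all but Sqle, lay outside this span, compared with 65.4% of all named genes. Of the 6 genes above the background limit on both arrays, 5 lay outside it, compared with 62.3% of the genes that passed that filter. Most genes of the array thus lay outside the span as well. A further 4 control transcripts that can be added before labelling (dap, lys, phe and thr) had log2 ratios between -0.53 and 0.03, though whether they were added is not given in the sources used here. These controls carry the variation of the arrays and not that between rats, which was not measured.

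**Figure D2:**
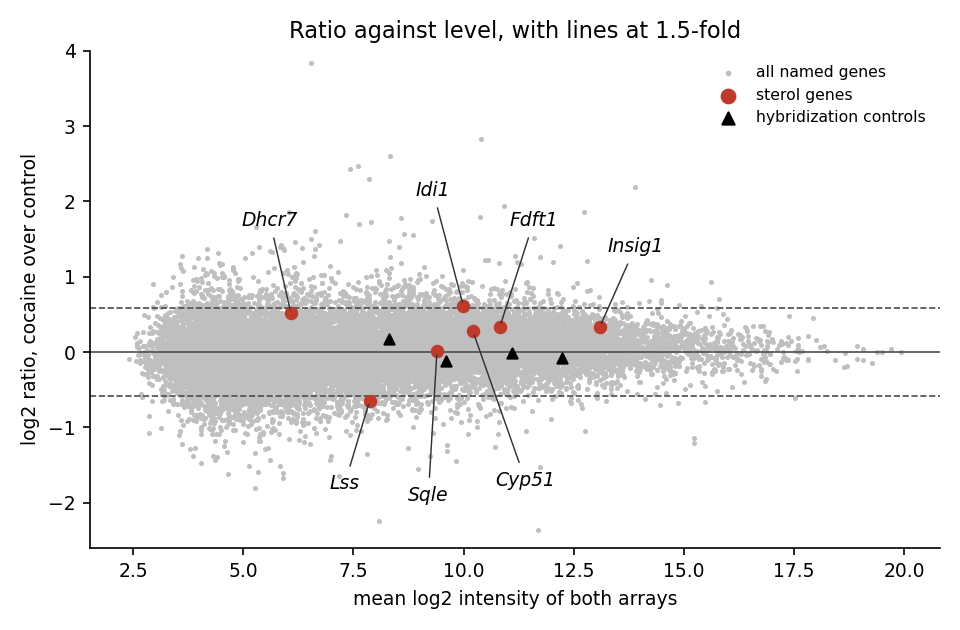
Log2 ratio of cocaine over control against the mean log2 intensity of both arrays for all named genes (grey points), the sterol genes (red) and the hybridization controls (black triangles), with dashed lines at 1.5-fold. Idi1 and Lss lie at the dashed lines, the other sterol genes lie inside them and within the cloud of all genes.

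All 7 probe sets bore in their identifiers the chromosome of their gene (1 for Dhcr7, 4 for Insig1 and Cyp51, 7 for Sqle, 15 for Fdft1, 17 for Idi1 and 20 for Lss), and each gene had 1 probe set. Ratios could therefore not be compared between probe sets of 1 gene.

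The other enzymes of the pathway were measured for 11 of 14 genes, and the rest were not analysed here. Of these 11, 8 were higher in the cocaine rat (median log2 ratio 0.26), compared with 52.4% of all named genes. In the mevalonate steps, Fdps, the farnesyl diphosphate synthase, stood at 2642 in the cocaine rat and 2183 in the control rat (log2 ratio 0.28), and Pmvk, the phosphomevalonate kinase, at 374 and 320 (0.23). Mvk, the mevalonate kinase, was lower at 194 against 266 (-0.46). Acat2, a thiolase at the entry of the pathway, was level at 343 on both arrays, and Mvd, the mevalonate decarboxylase, lay under the background limit on both. Of the 5 mevalonate genes above the limit on both arrays, Idi1 among them, 3 were higher, Acat2 was level and Mvk was lower.

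After lanosterol, all 8 measured enzymes were higher on the cocaine array, compared with 52.4% of all named genes, with a median log2 ratio of 0.38. Of them, 1 was at least 1.5-fold higher, compared with 4.63% of all genes. This was Tm7sf2, a sterol reductase, at 131 against 72.2, a control value just above the background limit (log2 ratio 0.86). Msmo1, the methylsterol oxidase, stood at 2394 in the cocaine rat and 1683 in the control rat (log2 ratio 0.51). Sc5d, a desaturase, stood at 1673 and 1235 (0.44), and Nsdhl, a dehydrogenase that helps to remove methyl groups, at 123 and 98.7 (0.31). Ebp, an isomerase, stood at 1011 and 842 (0.26), and Hsd17b7, a sterol ketoreductase, at 289 and 257 (0.17). The ratio of Hsd17b7 lay within the span of the hybridization controls. The late steps were therefore all on the higher side, although the control value of Dhcr7 lay under the limit, and the lower genes of the pathway that could be measured above it, Mvk and Lss, lay in earlier steps. Over the whole pathway, the 6 measured enzymes of the chosen genes included, 13 of 17 were higher, compared with 52.4% of all genes, and 12 of the 15 above the limit on both arrays, compared with 57.5%. Sqle, nearly level, is among the higher ones, and it was the only enzyme whose direction changed with a scaling, which left 12 of 17 higher after quantile normalization and after loess.

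**Figure D3:**
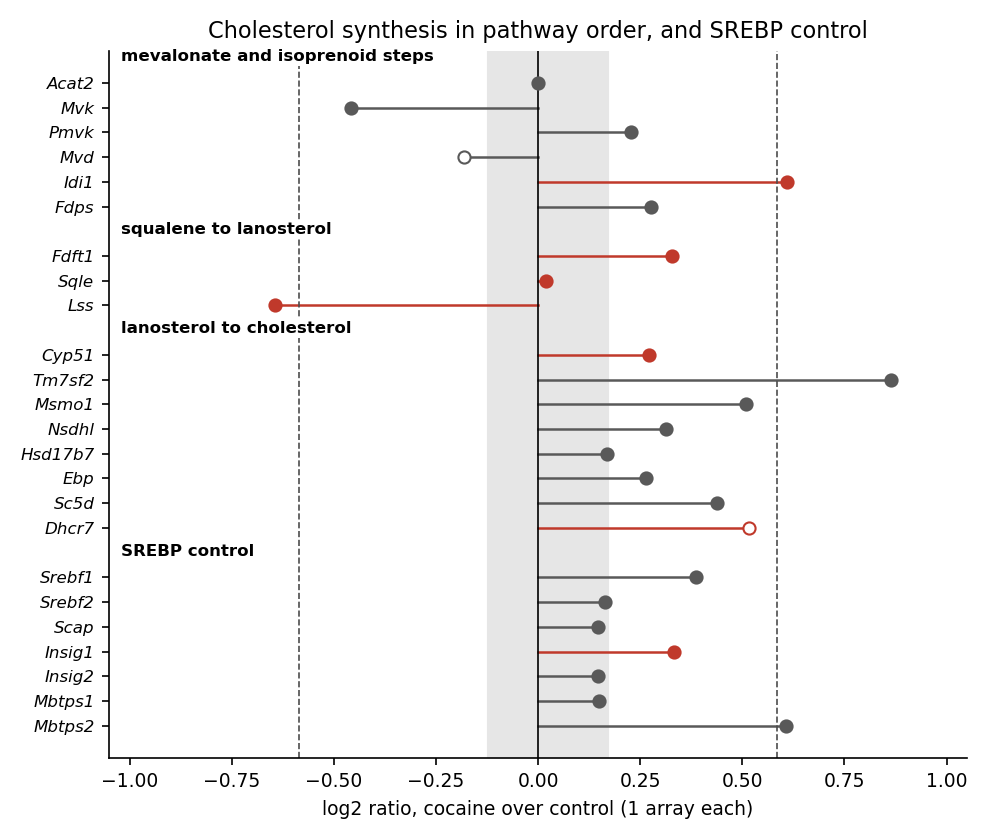
Log2 ratio of cocaine over control for each measured enzyme in the order of the pathway and for the SREBP control genes, with the chosen sterol genes in red, open circles for genes under the background limit on 1 or both arrays, a grey band for the span of the hybridization controls and dashed lines at 1.5-fold. All 8 genes after lanosterol lie to the right of zero, and Lss and Mvk reach farthest to the left.

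The genes that control SREBP were all higher on the cocaine array, 7 of 7, compared with 52.4% of all named genes. Their median log2 ratio was 0.17, and 1 was at least 1.5-fold higher, compared with 4.63% of all genes. Insig1 is among the 7 and was already counted among the chosen genes. Mbtps2, the protease that makes the second cut in SREBP, stood at 746 in the cocaine rat and 490 in the control rat (log2 ratio 0.61). Mbtps1, the protease of the initial cut, stood at 4873 and 4394 (0.15). Srebf1, which encodes SREBP1, the family member more tied to fatty acids, stood at 2049 and 1567 (0.39), and Srebf2, which encodes SREBP2 itself, at 3699 and 3299 (0.17). Scap, the escort of SREBP, stood at 283 and 255 (0.15), and Insig2, the relative of Insig1, at 1219 and 1101 (0.15). Srebf2, Scap, Insig2 and Mbtps1 thus lay within the span of the hybridization controls. Mbtps2 fell short of 1.5-fold after quantile normalization (0.56) and after a loess on level (0.55).

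Of the further genes known as SREBP2 targets, 7 of 11 were measured. Of these, 6 were higher, compared with 52.4% of all named genes, with a median log2 ratio of 0.34. Apart from Stard4 and Tmem97, all measured ones are enzymes already counted above, so that the counts overlap. Stard4, a carrier that moves cholesterol between membranes, stood at 2327 in the cocaine rat and 1300 in the control rat. This was a log2 ratio of 0.84, rank 201 from the highest among all named genes, and larger than that of any of the chosen sterol genes. Tmem97, a membrane protein of sterol transport, stood at 163 and 129 (0.34).

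Genes of sterol uptake and transport were measured for 9 of 12, and the rest were not analysed here. Of the 9, 7 were higher, compared with 52.4% of all named genes, and the median log2 ratio was 0.08. Quantile normalization turned Npc1 to the lower side and a loess on level turned Npc1 and Lipa, which left 6 and 5 of 9 higher with medians of 0.04 and 0.01. Only Stard4, also counted among the targets above, was at least 1.5-fold higher, compared with 4.63% of all genes. Stard3, a carrier of late endosomes, stood at 870 in the cocaine rat and 640 in the control rat (log2 ratio 0.44). Lrp1, a lipoprotein receptor, was lower at 6375 against 7379 (-0.21), and Mylip, a ubiquitin ligase, was lower at 3109 against 3371 (-0.12). Apart from Stard4 and Stard3, all measured genes of this list differed by less than 1.2-fold at the deposited values.

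The genes of cholesterol esterification and efflux, which include targets of the oxysterol receptors LXR, were listed with the receptor genes Nr1h2 and Nr1h3. The genes of this list were lower on the cocaine array in 7 of 8 cases, with a median log2 ratio of -0.28, and none differed by 1.5-fold. Of all named genes, 47.3% were lower. One of the lower genes, Abcg5, a sterol transporter, did not reach the background limit of either array, and the median of the 7 genes above it was -0.22. Abcg1 and Abca1, transporters that pass cholesterol to lipoproteins outside the cell, stood at 3946 against 5462 (log2 ratio -0.47) and at 3227 against 4350 (-0.43). Soat1, which esterifies cholesterol for storage, stood at 7632 against 9916 (-0.38). Nr1h3, which encodes LXR alpha, was the only higher gene, at 3379 against 2752 (0.30). Nr1h2, the other receptor gene, was counted among the lower ones (-0.12). Soat1, Abca1 and Abcg1 are abundant in macrophages, and 5 of 6 macrophage markers were lower as well, of which Marco did not reach the background limit of either array. The median log2 ratio of the 5 markers above it was -0.40. The summed intensity of these markers was 12757 in the cocaine rat and 16997 in the control rat, with none at 0, and Mrc1, a mannose receptor, was the largest contributor at 9181 and 12101. Their part in the ratios of the efflux genes was not tested.

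The fatty acid synthesis genes driven by SREBP1 went both ways, 6 higher and 6 lower of 12 (median log2 ratio 0.04). Fasn, the fatty acid synthase, stood at 9896 in the cocaine rat and 7202 in the control rat (log2 ratio 0.46), and Me1, the malic enzyme that supplies NADPH, at 834 and 643 (0.38). Acss2, which makes acetyl-CoA from acetate, stood at 102 against 125 (-0.29), and Fads2, a desaturase, at 4626 against 5606 (-0.28). None differed by 1.5-fold. Alveolar type II cells are rich in many of these enzymes, and 5 type II markers were measured. Sftpc had the same reading, the highest of the array, for both rats, so that its ratio of zero does not show whether its level differed. Of the other 4, Sftpa1 and Lamp3 were higher and Sftpb and Napsa lower, with log2 ratios between -0.24 and 0.15 and summed intensities of 1136610 in the cocaine rat and 1163420 in the control rat. The part of type II cells in the ratios of the sterol and fatty acid genes was not tested.

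Several markers of other cell types had larger ratios than the sterol genes. Neutrophil markers were higher in 6 of 6 cases, compared with 52.4% of all named genes. The median log2 ratio was 1.22 over the 5 that exceeded the background limit of both arrays. The summed intensity of all 6 was 16283 in the cocaine rat and 5040 in the control rat. Lcn2, a granule protein, made up most of it at 13039 and 3589. Cardiomyocyte markers went both ways, 8 higher and 3 lower of 11, and summed to 13991 and 10401. The lower ones were Myl2 (log2 ratio -0.29), Myl3, and Ckm, the muscle creatine kinase, at 52.6 in the cocaine rat, under the limit, and 85.6 in the control rat. Of the 6 that exceeded both limits, 5 were higher, compared with 57.5% of all named genes that passed that filter. Tnnt2, the cardiac troponin T, stood at 457 and 82.8 and Mb, the myoglobin, at 398 and 73.9. White adipocyte markers were higher in 5 of 5 cases, compared with 52.4% of all named genes, and summed to 1212 and 374. Of these, Fabp4, a fatty acid carrier, stood at 694 and 235, and Adipoq, the hormone adiponectin, at 352 against a control value of 24.7 under the background limit, while Lep, Cidec and Retn lay under the limit on both arrays. No marker of these lists was at 0. The neutrophil and adipocyte markers were thus higher on the cocaine array and most cardiomyocyte markers too, and the part of these lists in the ratios of the sterol genes, Fasn and Me1 was not tested.

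In the other branches that use isoprenoids, 4 of 7 measured genes were higher (median log2 ratio 0.07), compared with 52.4% of all named genes. Ggps1, which makes the geranylgeranyl anchor, stood at 572 in the cocaine rat and 889 in the control rat, at least 1.5-fold lower (log2 ratio -0.64). Coq2, an enzyme of ubiquinone synthesis, stood at 1536 and 1118 (0.46), and Pggt1b, which attaches geranylgeranyl to proteins, at 2584 and 1938 (0.42). Pdss2, another enzyme of ubiquinone synthesis, stood at 324 against 407 (-0.33). Of the enzymes of oxysterols and bile acids, 3 of 6 measured genes exceeded the background limit of both arrays, and all 3 were higher by less than 1.2-fold at the deposited values. They were Ch25h at 240 and 204 (log2 ratio 0.24), Cyp7b1 at 177 and 153 (0.21) and Cyp27a1 at 846 and 755 (0.16).

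**Figure D4:**
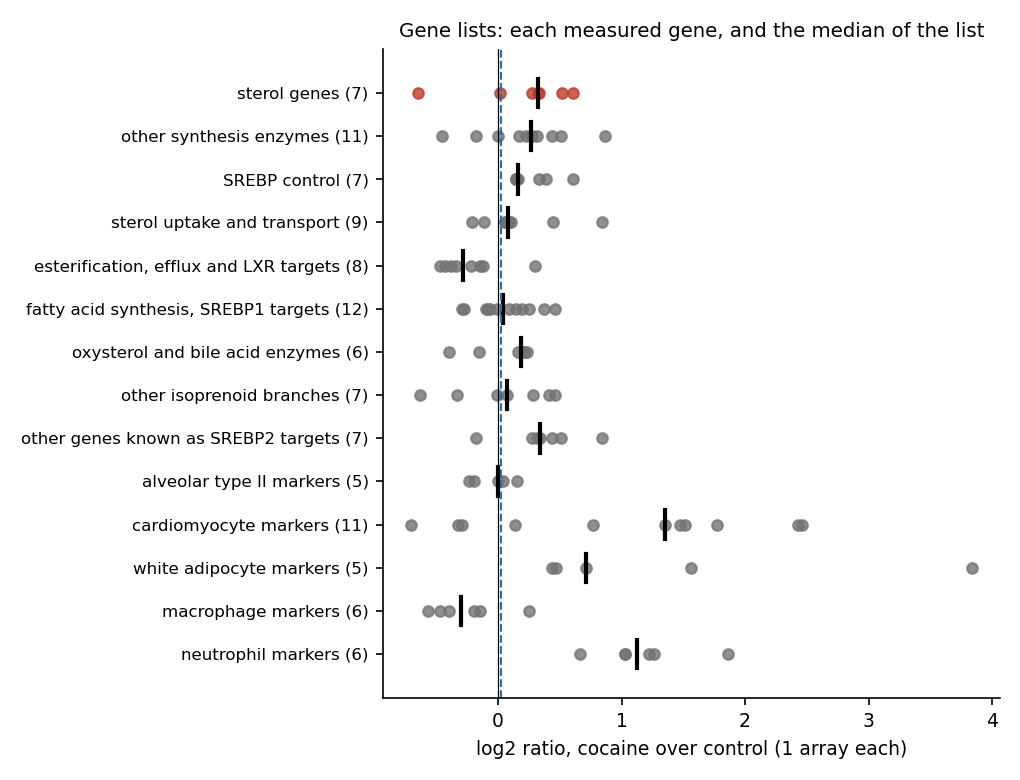
Log2 ratio of cocaine over control for each measured gene (points) and the median (black bars) of the sterol genes, the other lists and 5 lists of cell type markers, with the number of measured genes in brackets and a dashed line at the median of all named genes, 0.02. The sterol genes and the other synthesis enzymes lie mostly to the right of that line, the efflux genes and macrophage markers mostly to the left, and the neutrophil, adipocyte and cardiomyocyte markers reach farthest to the right.

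**Figure D5:**
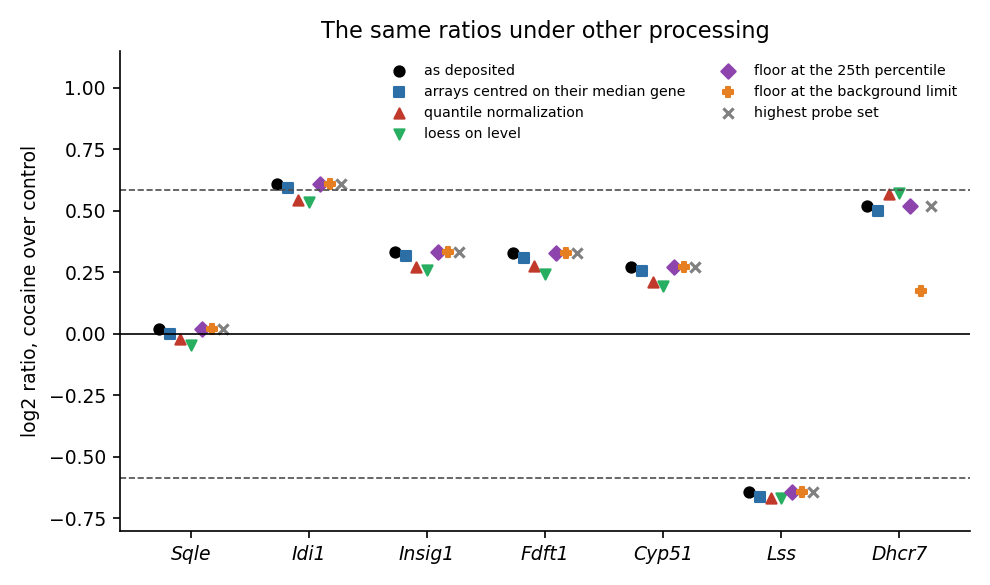
Log2 ratio of cocaine over control of each sterol gene as deposited and under 6 other ways of processing, with dashed lines at 1.5-fold. Lss stays between -0.67 and -0.64, Idi1 crosses the upper line after quantile normalization and loess, and Dhcr7 drops to 0.18 when values are raised to the background limit.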

How the data were processed

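The authors hybridized TRIzol-extracted total RNA to Clariom S arrays and deposited normalized intensities, 1 per probe set, which are linear. MAS5 is named in the submitters' processing notes and the Transcriptome Analysis Console in the methods, with versions, build and annotation not given in the sources used here. Of 24834 probe sets, 15049 carried 1 gene symbol, 0 several, and 8139 transcript probe sets none. Log2 intensities, without a pseudocount, were averaged per gene (15037 genes, 10 with more than 1 probe set). The log2 ratio was cocaine minus control. A call was 1.5-fold, since 1 array per group allows no test and limits the precision. Members and lists were chosen with earlier results of these data known. Named were all members, synthesis enzymes and SREBP control genes, and in the other lists genes past 1.5-fold and the 4 largest absolute log2 ratios above the background limit on at least 1 array. No genes of like pattern were named, since over 2 arrays any pair correlates perfectly. Alternatives were centring, quantile normalization, loess (span 0.3), floors at the 25th percentile and the background limit, the highest probe set, and other folds and filters. Steps were tested on simulated data. Of the marker lists, 5 of 6 type I (3 after quantile normalization), 0 of 3 club cell and 0 of 6 hepatocyte markers were higher in the cocaine rat. Of all named genes, 52.4% were higher at the deposited values. Python 3.11.15, numpy 2.4.6, pandas 2.3.3, statsmodels 0.14.6 and matplotlib 3.10.9 were used.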

Additional observations from a re-analysis of the deposited data

How the results depend on the processing

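Under the 6 other ways of processing, all members but Sqle kept their direction, and Sqle ranged from -0.05 to 0.02. Taking the highest probe set could change no member, since each has 1 probe set. The lower of the floors could not either, since every member lies above it on both arrays. The floor at the background limit, equal for both arrays, could shrink a ratio to 0 but not reverse it. The direction of the members was thus tested only by centring, quantile normalization and loess. Of the other named genes, Npc1, Lipa and Elovl6 changed sign, with log2 ratios that stayed between -0.03 and 0.06. Idi1 had a log2 ratio of 0.54 after quantile normalization and 0.54 after a loess on level, so that 0 of the members were then at least 1.5-fold higher, and the cause was not tested. Dhcr7 had 0.18 with values raised to the background limit. With 1.2-fold in place of 1.5-fold, 5 members were higher, and, in a combination added after seeing the data, 4 after centring, after quantile normalization and with the floor at the background limit, and 2 after loess. With 2-fold 0 were higher and 0 lower. Among genes at or above the median mean level, 0 members were at least 1.5-fold lower, since Lss did not pass that filter. The median of the members and those of the 10 pathway lists moved by less than 0.17, the largest absolute log2 ratio of a hybridization control, under every alternative.

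Of all genes, 696 were at least 1.5-fold higher and 744 lower at deposited values. These counts were 431 and 282 with the floor at the background limit, 411 and 276 for genes above the limit on both arrays, and 308 and 146 for genes at or above the median level. With the floor at the 25th percentile, 430 were lower. At 1.2-fold they were 3370 and 3011, and at 2-fold 105 and 90. Leaving out a replicate could not be done with 1 array per group. No paired analysis was possible because each group has 1 array and no test was run. Signal over background limits Dhcr7, whose control value lies under the background limit, and Mvd, Abcg5, Cyp7a1, Cyp8b1 and Cyp39a1, which lie under it on both arrays.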
